A study of Mus musculus with 4 samples.

Results

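The luminal epithelium of the mouse uterus was compared between 1 library of a floxed control and 1 library whose label says that the homeobox genes Msx1 and Msx2 were knocked out. Both belong to a series of 4 libraries, and the other two are from the stroma beneath the epithelium. The knockout animal is labelled Msx1 d/d/Msx2 d/d and described as uterine-specific, and the control is Msx1 f/f/Msx2 f/f, in which the same genes carry the floxed alleles. Both genotypes were taken on day 4 after a mating to a vasectomized male, which gives pseudopregnancy without embryos, and the cells were cut out by laser capture. With 1 mouse per genotype in the design text, an effect of genotype and a difference between animals cannot be told apart. The Cre driver, the exons deleted, the age of the mice and whether an animal gave both epithelium and stroma are not given in the sources used here.

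Luminal epithelium is the single layer of cells that lines the uterine cavity and the first tissue an embryo meets. Around day 4 it passes, under progesterone and a pulse of estrogen, into a state that permits attachment. Msx1 and Msx2 are transcriptional repressors expressed in this epithelium before attachment, and mice that lack both in the uterus fail to implant embryos.

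The genes compared were chosen by level alone, while the gene lists used below were written with earlier results of these data known. The share over all kept genes beside a list count is therefore a scale and not a test. The deposited table lists 23235 genes in RPKM, which is reads scaled by transcript length and by the mapped reads of the library, and 7022 named genes averaged at least 1 RPKM over the pair. Small RNA and unnamed gene models were set aside. The difference of a gene is log2((labelled knockout + 1)/(control + 1)), which understates the difference of a low gene, and a gene is called higher or lower when that difference is at least 1 in size. With 1 library a side there is no replicate and no test. Higher and lower describe these libraries only. A kept gene under 1 RPKM in 1 library passed the minimum of 1 RPKM through the other library alone, which favours a call. A kept gene listed at 0 in 1 library is always called.

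The libraries differed greatly in depth. The size of 1 read, estimated from the low values, gave about 6.35 M reads for the control and 90.2 M for the labelled knockout, a ratio of 14.2. The stroma libraries were estimated at 42.7 M and 61.3 M. The control library therefore sets the precision of most ratios. Some strongly lower genes, such as Six3, had fewer estimated reads in the library labelled knockout. Where an interval follows a ratio, it is an approximate 95% Clopper-Pearson interval on the estimated reads. It covers counting error only, and amplified reads do not stand for separate molecules.

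The targeted genes were examined first. Msx1 (chr5:38211730-38215824, mm9) was at 23.2 RPKM in the control against 13.6 RPKM with the knockout label. Msx2 (chr13:53562250-53568149, mm9) was at 1.31 and 2.06 RPKM, a direction that goes against the label, with an interval of 0.98 to 2.60 around the ratio of 1.58. Msx1as, the antisense transcript of the Msx1 locus, was at 39.0 and 2.15 RPKM, the largest negative difference of any named gene that reached 5 RPKM. Whether counting used strand is not given, so reads of Msx1 and Msx1as cannot be told apart. The knockout is therefore called the library labelled knockout, and every direction below rests on that label. Where levels are given as a pair, the control comes first.

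Markers of the captured cells fitted the label of luminal epithelium in both libraries. Krt8 and Krt18, the paired keratins of simple epithelium, were at 56.9 and 47.2 RPKM in the control against 62.7 and 37.5 RPKM with the knockout label. Epcam, an epithelial adhesion protein, was at 24.1 and 26.2 RPKM. Cdh1, the cadherin of adherens junctions, was at 26.8 and 25.3 RPKM. All 20 general epithelial markers were kept and none was called in either direction, with a median difference of 0.10 against 0.09 over all kept genes. Of 10 markers of luminal epithelium, 8 were kept, with a median of 0.46. Of these, 2 were called higher and none lower, beside 3.67% higher over all kept genes. They were Irg1 (36.9 and 98.6 RPKM) and Ltf (11.1 and 41.8 RPKM). Calb1, a calcium-binding protein of the lining epithelium, stood at 69.8 and 82.6 RPKM. Lpar3, the lysophosphatidic acid receptor needed for embryo spacing, was at 25.1 and 23.6 RPKM. Krt13 (0 and 0.155 RPKM) and Gjb2 (0.428 and 0.283 RPKM) were not kept. Of 10 glandular markers, 1 was kept, and the list summed to 2.00 and 7.61 RPKM. Foxa2, the transcription factor that defines uterine glands, was at 0.0881 and 0.0312 RPKM. Aldh1a1, a retinoic acid enzyme and the kept member, was called higher at 0.789 and 4.86 RPKM. Guca2b was at 0.365 and 1.57 RPKM and Lif at 0.13 and 0.766 RPKM.

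Markers of other cells had different directions. The 20 stromal markers summed to 24 RPKM in the control against 12.5 RPKM with the knockout label, against 560 and 876 RPKM in the stroma libraries. The 17 macrophage and dendritic markers in the table summed to 27.8 and 4.07 RPKM, against 211 and 90.2 RPKM in stroma. Smooth muscle markers summed to 5.36 and 0.791 RPKM. Lymphocyte markers summed to 2.16 and 0.785 RPKM, with Cd4, Cd2 and Ms4a1 listed at 0 in both epithelial libraries. Neutrophil markers summed to 1.10 and 1.21 RPKM. Endothelial markers summed to 45.8 and 42.7 RPKM, of which Sox17, also expressed in epithelium, made up 44.8 and 41.6 RPKM. In captured tissue, fewer cells of a type and less RNA per cell cannot be told apart. Levels set across the epithelium and stroma tables come from separate normalizations.

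Of the 7022 kept genes, 258 (3.67%) were called higher in the library labelled knockout and 125 (1.78%) were called lower, together 383 genes (5.45%). Over all kept genes, called or not, 61.6% lay above 0 and 38.4% below. Higher genes made up 67.4% of the calls. Scaling the libraries without their 50 most abundant genes moved the median of all kept genes by -0.12 and gave 210 higher and 166 lower genes, a share of 55.9%. At least 4-fold differences were found for 58 higher and 29 lower genes. The spread of the middle 90 in 100 genes, from the 5th to the 95th percentile, ran from -0.58 to 0.87, wider than the -0.32 to 0.40 of the same comparison in stroma. In stroma, 33 of 7011 kept genes were higher (0.471%) and 37 were lower (0.528%).

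**Figure D1:**
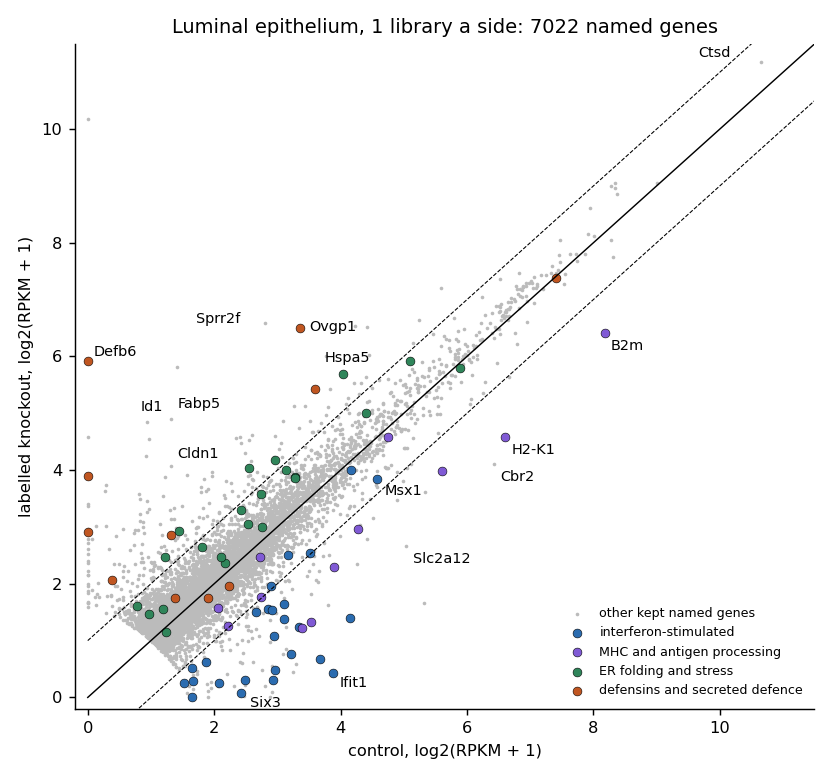
Level of each of the 7022 kept named genes in the control (x axis) and in the library labelled knockout (y axis), both as log2(RPKM + 1), 1 point a gene and 1 library an axis. The dashed lines mark the size of a call. Interferon-stimulated and antigen-presenting genes lie below the diagonal, and most protein-folding genes of the endoplasmic reticulum lie above it.

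The 2 directions rested on unequal depth. Among called genes with an estimate of reads, 83 of 246 higher genes had fewer than 10 estimated reads in the control, against 4 of 123 lower genes in the library labelled knockout. In all, 24 higher genes were listed at 0 in the control. A value of 0 does not show absence here, since Rpl26, a ribosomal protein gene named after its values were seen, is listed at 0 in the control and 1.33 RPKM with the knockout label. Some zeros are failed estimates: Lars2, the mitochondrial leucyl-tRNA synthetase, is listed at 0 and 1156 RPKM, and its locus is marked in the table as holding too much data to quantify. Among the 1707 genes that reached 5 RPKM in both libraries, 46 were higher (2.69%) and 17 were lower (0.996%). Calls were not limited to scarce genes. They made up 2.03% higher and 1.04% lower among genes with a mean of 1 to 2 RPKM, and 7.92% higher and 2.50% lower among the 240 genes of 20 to 50 RPKM.

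**Figure D2:**
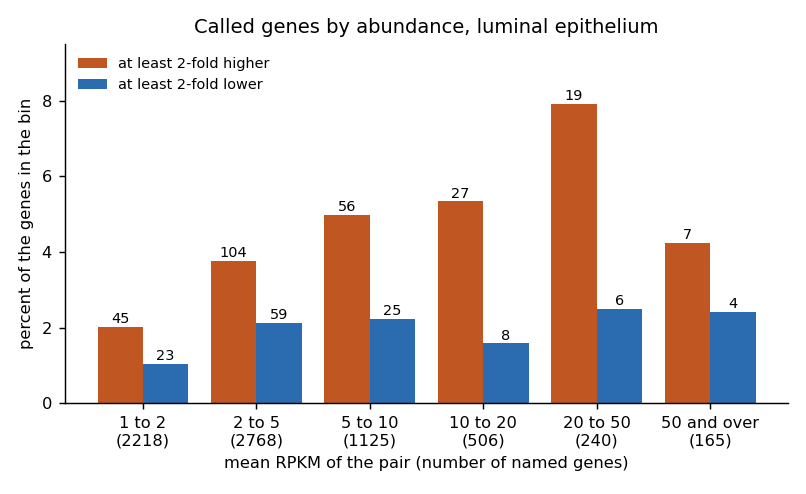
Percent of kept named genes called higher (orange) or lower (blue) in the library labelled knockout, by the mean RPKM of the pair, with the number of genes in each bin under the axis. Higher calls outnumber lower calls in all 6 bins, and their share is largest, at 7.92%, from 20 to 50 RPKM.

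At the edge of the rule, Ddr1 (4.99 and 11 RPKM) was just inside, and Gusb (0.892 and 2.78 RPKM) and Lyst (3.22 and 1.11 RPKM) were just outside.

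Genes of antigen presentation by major histocompatibility complex (MHC) class I were abundant in the epithelium and lower in the library labelled knockout. Class I molecules display peptides from inside the cell to T cells. The peptides are cut by the immunoproteasome, carried into the endoplasmic reticulum by the Tap transporter, and bound to a heavy chain joined to beta-2-microglobulin. Interferons raise many genes of that path through shared promoter elements. Stretches of 3 promoters from this path and its companion interferon response are shown first, since the counts of motifs below refer to them. They are taken from RefSeq, build GRCm38.p6, written 5′ to 3′ on the strand of the gene and ending at the base before its start. Capitals mark GAAANNGAAA, the core of the interferon-stimulated response element, read on either strand. They belong to B2m (chr2:122147527-122147686, plus strand), Ifit1 (chr19:34640749-34640888, plus strand) and Isg15 (chr4:156200819-156200958, minus strand).
B2m: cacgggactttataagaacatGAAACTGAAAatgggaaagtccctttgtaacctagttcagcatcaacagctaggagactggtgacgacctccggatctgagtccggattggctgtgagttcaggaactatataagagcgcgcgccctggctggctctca
Ifit1: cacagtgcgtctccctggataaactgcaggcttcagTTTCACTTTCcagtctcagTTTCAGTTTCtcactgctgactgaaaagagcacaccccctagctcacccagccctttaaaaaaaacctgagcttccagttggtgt
Isg15: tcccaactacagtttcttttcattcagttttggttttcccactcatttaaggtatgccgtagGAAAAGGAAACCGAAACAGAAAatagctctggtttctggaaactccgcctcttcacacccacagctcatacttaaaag

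In these stretches the motif occurs 1 time in B2m, 2 times in Ifit1, on the minus strand of the gene, and 3 times in Isg15, where the matches overlap. In B2m the match lies 139 to 130 bases before the start of the gene. Of 83 lower genes with a promoter in the RefSeq table, 17 (20.5%) held the motif within the 250 bases before the start. The share was 2.69% (5 of 186) among higher genes, 3.12% among kept genes and 3.46% among all 27025 genes with a promoter. A match is a run of letters and does not show that a factor binds there.

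B2m, the shared light chain of class I molecules (deposited locus chr2:121945844-122011925, mm9, wider than the gene), was the most abundant lower gene. It stood at 289 RPKM in the control against 84.7 RPKM with the knockout label, 3.41-fold lower with an interval of 3.20 to 3.63. H2-K1, a classical class I heavy chain (chr17:34132957-34137278, mm9), stood at 96.5 and 22.9 RPKM, 4.22-fold lower (interval 3.91 to 4.55). H2-D1, the other classical heavy chain, was 3.21-fold lower, at 47.4 and 14.8 RPKM. The fewest estimated reads of the 3 in the shallower library were the 573 of H2-D1.

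The genes that make and move the peptides followed the same direction to different extents. Psmb8 and Psmb9, catalytic subunits of the immunoproteasome, were at 18.3 and 10.5 RPKM in the control against 6.82 and 1.51 RPKM with the knockout label. Tap1, one chain of the peptide transporter, was 7.14-fold lower (9.45 and 1.32 RPKM). Tap2, its partner chain, was at 3.68 and 1.38 RPKM and missed the size of a call at -0.97. Tapbp, which tethers class I chains to the transporter, was at 25.9 and 22.9 RPKM, and Erap1, the peptide-trimming protease, at 5.60 and 4.53 RPKM. Neither was called. In all, 7 of 12 kept members of the list were lower and none higher, beside a background of 1.78% lower, and all 12 lay below 0, beside 38.4% of all kept genes. The median difference was -1.45. Of 45 kept proteasome subunits by name (Psm), Psmb8 and Psmb9 were the only ones called.

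Further heavy chains were lower too, with less certainty. H2-Q4 was at 13.9 and 3.90 RPKM and H2-Q6 at 6.0 and 0.15 RPKM. H2-Q9 was at 6.36 RPKM in the control and is listed at 0 in the library labelled knockout, with too little data for the authors' test. The Q and T chains are close copies of one another, so reads may be split among them. Among all genes named H2, class I and class II together, 10 of 16 kept were lower, beside 1.78% over all kept genes. The median was -1.64. The class II genes H2-Aa and H2-Ab1 are among the 10. The 1 higher gene, H2-Ke6 (0.41 and 1.99 RPKM, named after its values were seen), is not a heavy chain but a metabolic enzyme encoded in the same gene cluster.

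Interferon-stimulated genes had larger ratios at lower levels. Ifit1, which binds foreign RNA ends (chr19:34715379-34724499, mm9), was at 13.7 RPKM in the control against 0.344 RPKM with the knockout label, 39.9-fold lower with an interval of 30.7 to 52.7. Isg15, which is joined to other proteins like ubiquitin, was at 11.7 and 0.592 RPKM. Irf7, the transcription factor that amplifies the interferon response, was at 16.7 and 1.63 RPKM. Oas2, an RNA-sensing synthetase, was 28.8-fold lower (6.65 and 0.231 RPKM). Stat2, which carries the signal of the receptor, was at 6.23 and 1.95 RPKM.

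Of 26 kept genes on the interferon list, 21 were lower and none higher, beside 1.78% lower over all kept genes. All 26 were below 0, beside 38.4% of all kept genes, with a median of -1.55. All 34 members found in the table, kept or not, had a lower level in the library labelled knockout. The smallest difference belonged to Bst2, the membrane tether of budding viruses, at 16.9 and 15 RPKM, which was not called. Ddx58, the sensor RIG-I, also missed the size of a call, at 22.9 and 13.3 RPKM. The response-element motif was present in 9 of 17 kept members with a promoter in the table (52.9%), among them Ifit1, Isg15, Stat2, Oas1a, Oas3, Bst2 and Irgm1. Bst2 thus held the motif without being called. On the antigen list 2 of 11 held it, B2m and H2-T23. The interferon and antigen lists together held 28 of the 125 lower genes.

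The Ifitm genes, membrane proteins that are themselves induced by interferon, had the other direction. Ifitm1 (chr7:148153328-148155726, mm9) was at 17.8 RPKM in the control against 92.2 RPKM with the knockout label, 5.17 times as high with an interval of 3.99 to 6.73. Ifitm2 and Ifitm3, named after their values were seen, were at 20.9 and 90.5 RPKM in the control against 63.9 and 163 RPKM with the knockout label. Ifitm1 and Ifitm2 were called higher and Ifitm3 was not, and all 4 kept Ifitm genes lay above 0. The members resemble one another in sequence, so their separate levels carry some uncertainty. In stroma Ifitm1 was at 13.8 and 11.1 RPKM and Ifitm3 at 43.1 and 20.6 RPKM.

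Macrophage genes were lower beside these sets. Lyz2, the lysozyme of macrophages, was at 7.50 and 0.705 RPKM, and Cd74, the invariant chain of class II molecules, at 6.36 and 0.96 RPKM. H2-Aa and H2-Ab1, the class II chains, were at 2.86 and 2.70 RPKM in the control against 0.128 and 0.173 RPKM with the knockout label. All 4 kept members of the marker list were lower, beside 1.78% lower over all kept genes. Each was under 1 RPKM in the library labelled knockout and was kept through the control alone, which favours a call. Of the 17 in the table, kept or not, 15 had a lower level, beside 38.4% of all kept genes below 0. Csf1r, the receptor that macrophages depend on, was at 0.529 and 0.0555 RPKM. Fcer1g was at 1.41 RPKM in the control and listed at 0 in the library labelled knockout. Tyrobp and Cd68 had the other direction, at 0.454 and 0.65 RPKM and at 0.565 and 0.742 RPKM. Apoe, a lipid carrier abundant in macrophages, was 17.6-fold lower (8.80 and 0.499 RPKM). The part of these cells in the antigen and interferon differences was not tested.

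The stroma values give a scale for that RNA. The macrophage markers of the control epithelium summed to 13.2% of the sum in control stroma. These sums come from tables that were normalized separately.

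The direction in stroma was similar for part of the set. Of 125 lower genes, 65 were also kept in stroma, and 22 of those were lower there too, where 0.528% of all kept genes were lower. Another 26 lay below 0 without being called, making 48 of 65 below 0, against 35.1% of all kept stroma genes. The 22 include B2m (139 and 48.5 RPKM in stroma), H2-K1 (49.7 and 13.7 RPKM), Psmb9 (8.61 and 2.48 RPKM), Cd74 (52.1 and 19.8 RPKM) and Lyz2 (45.1 and 21.5 RPKM). Ifit1 was at 0.508 and 0.26 RPKM in stroma, Isg15 at 0.989 and 0.908 RPKM and Irf7 at 1.41 and 0.777 RPKM. None of those 3 met the size of a call there. Of 131 higher genes kept in stroma, none was higher in both compartments, beside 0.471% higher over all kept stroma genes, and 78 lay above 0, beside 35.1% of all kept stroma genes below 0. Both counts are near that background. If the same 2 mice gave both compartments, these counts come from the same animals.

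**Figure D3:**
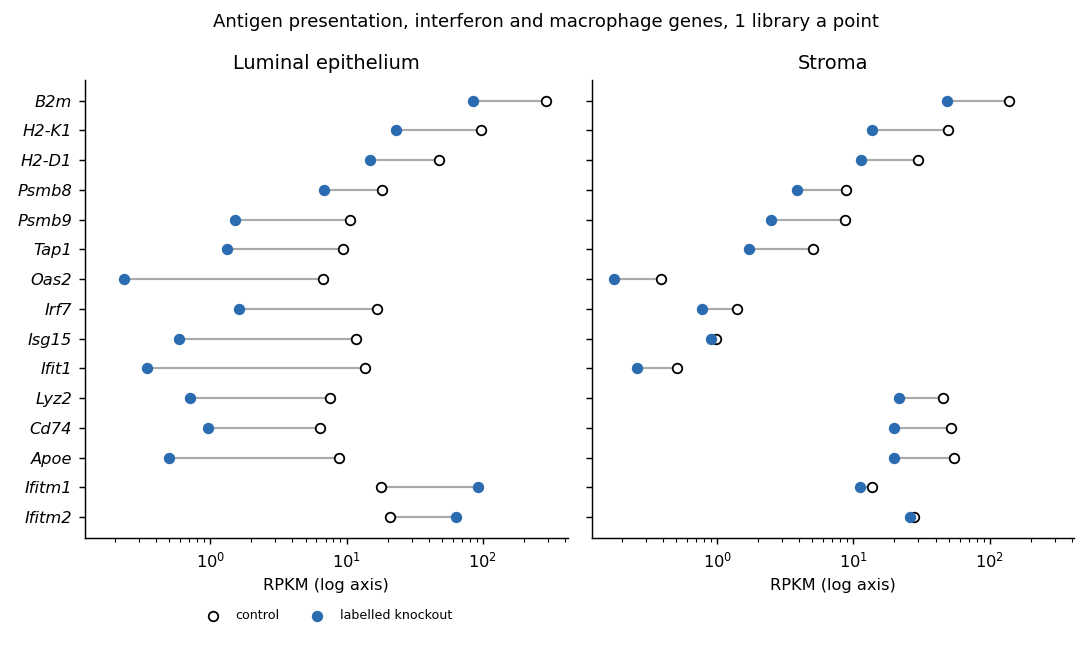
RPKM on a log axis of 15 genes of antigen presentation, interferon response and macrophages in the control (open) and the library labelled knockout (filled), in luminal epithelium (left) and stroma (right), 1 library a point. B2m, H2-K1 and Cd74 are lower in both compartments, Ifit1 and Isg15 reach above 10 RPKM in control epithelium only among these 4 libraries, and Ifitm1 and Ifitm2 are higher in epithelium and slightly lower in stroma.

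Genes of protein folding in the endoplasmic reticulum, the compartment where secreted proteins are folded, were above 0 in 20 of 22 kept members, beside 61.6% of all kept genes, and 5 were called higher. Many of them share the endoplasmic reticulum stress element, a CCAAT box set apart from a CCACG box by a fixed gap. The promoters of the chaperone Hspa5 (chr2:34771950-34772089, plus strand) and of Creld2 (chr15:88819506-88819645, plus strand), a disulfide isomerase partner, are shown as carriers of that element. They follow the same conventions (RefSeq, GRCm38.p6), and capitals mark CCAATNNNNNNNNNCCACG on either strand.
Hspa5: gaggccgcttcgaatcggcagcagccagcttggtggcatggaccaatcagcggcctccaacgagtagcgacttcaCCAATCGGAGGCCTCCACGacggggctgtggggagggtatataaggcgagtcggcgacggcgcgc
Creld2: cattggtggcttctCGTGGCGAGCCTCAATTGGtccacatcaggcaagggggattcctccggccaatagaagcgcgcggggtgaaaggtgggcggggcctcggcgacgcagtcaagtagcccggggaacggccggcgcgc

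Each stretch holds 1 match, on the plus strand in Hspa5 and on the minus strand in Creld2. Of 18 kept members of the list with a promoter in the table, 7 (38.9%) held the element, against 0.13% of all 27025 genes. They are Hspa5, Hsp90b1, Pdia6, Calr, Canx, Dnajc3 and Creld2.

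Hspa5, the main chaperone of the compartment, was at 15.5 RPKM in the control against 50.9 RPKM with the knockout label, 3.28 times as high with an interval of 2.88 to 3.74. Creld2 was at 1.71 and 6.58 RPKM, on about 13 estimated reads in the control. Pdia6, a disulfide isomerase, was at 6.82 and 17.0 RPKM. Xbp1, the transcription factor of the folding response, was at 4.89 and 15.4 RPKM, and Herpud1, which serves the disposal of misfolded proteins, at 1.32 and 4.57 RPKM. These 5 of 22 kept members were called higher, beside a background of 3.67%, and none was lower, with a median of 0.71. Hsp90b1 held the promoter element but stood at 58.1 and 54.4 RPKM. The transcripts usually raised when folding stress leads to cell death were low: Ddit3 was at 0.96 and 1.78 RPKM, and Trib3 is listed at 0 in the control and 0.0938 RPKM with the knockout label. In stroma Hspa5 was at 19.9 and 38.2 RPKM, and none of the 23 kept members was called there. Their median in stroma was 0.35, against 0.07 over all kept stroma genes, and the list summed to 182 and 246 RPKM.

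Secreted products of the epithelium were among the largest positive differences. Ovgp1, the oviductal glycoprotein, was at 9.24 RPKM in the control against 89.2 RPKM with the knockout label, 9.65 times as high with an interval of 8.16 to 11.4. Sprr2f, a small proline-rich protein induced by estrogen, was at 6.02 and 95.8 RPKM on about 16 estimated reads in the control. Ltf, secreted lactotransferrin, was at 11.1 and 41.8 RPKM. Of 11 kept defence genes 7 were higher and none lower, and of 10 kept estrogen-responsive genes 5 were higher and none lower, with medians of 1.68 and 1.22, beside 3.67% higher over all kept genes. Ltf is counted in both. Defb6, Defb5, Defb3 and Ang4 among the higher defence genes, and Padi1 among the higher estrogen-responsive genes, were under 1 RPKM in the control. They passed the minimum level through the library labelled knockout alone, which favours a call. Ovgp1 and Ltf also stand on marker lists of oviduct and luminal epithelium. Of 7 ciliated and oviduct markers in the table, Ovgp1 and Tubb4b, a tubulin found in many cells (9.62 and 15.3 RPKM), were the kept ones, and the list summed to 19.4 and 105 RPKM. The markers that define ciliated cells were low: Foxj1, Tekt1 and Dnali1 were listed at 0 in the control and stood at 0.00941, 0.0158 and 0.0162 RPKM with the knockout label, and Rsph1 was at 0.144 RPKM in the control and listed at 0 with the knockout label. Ccdc39, also used by cilia, was at 0.401 and 0.259 RPKM.

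Most beta-defensins, which are antimicrobial peptides, were listed at 0 in the shallower library. Defb6, Defb5 and Defb3 were listed at 0 in the control and stood at 59.4, 13.9 and 6.53 RPKM with the knockout label, so no ratio is given. Their transcripts are too short for an estimate of reads. Of 44 beta-defensin genes in the table, 41 were listed at 0 in the control and 28 in the library labelled knockout. Defb2 was detected in both, at 2.75 and 2.38 RPKM. Wfdc2, an abundant secreted protease inhibitor, was at 170 and 166 RPKM.

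Genes well above the floor, at 5 RPKM or more in both libraries, give the ratios least touched by depth. Besides the antigen genes, the lower members included metabolic enzymes, transporters and surface proteins. Slc2a12, a glucose transporter (chr10:22364817-22451253, mm9), had the largest negative difference among them. It was at 32.0 RPKM in the control against 5.31 RPKM with the knockout label, 6.03-fold lower with an interval of 5.54 to 6.55. Cbr2, a carbonyl reductase (chr11:120590799-120593335, mm9), was at 84.8 and 16.3 RPKM, 5.20-fold lower (interval 4.68 to 5.77). Ckb, brain-type creatine kinase, was at 39.3 and 11.3 RPKM, and Gpx2, the glutathione peroxidase of epithelia, at 20.5 and 5.92 RPKM.

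Smaller ratios were held by other abundant genes. Thrsp, a regulator of lipid synthesis, was 2.83-fold lower (28.7 and 10.1 RPKM). Tfcp2l1, an epithelial transcription factor, was 2.36-fold lower (30.8 and 13 RPKM). Mme, the membrane peptidase neprilysin (chr3:63099794-63186153, mm9), was at 100 RPKM in the control against 48.6 RPKM with the knockout label, on 4991 estimated reads in the control. Its interval, 2.00 to 2.12-fold lower, was the narrowest of the lower genes in the plot of genes at 5 RPKM in both. Hsd17b4, a peroxisomal enzyme of fatty acid breakdown, was at 12.3 and 5.59 RPKM. Insl6, an insulin-like peptide, was at 18.8 and 7.19 RPKM, and Add3, a protein of the membrane skeleton, at 14.9 and 6.17 RPKM. Plac8 was at 22.0 and 7.90 RPKM in epithelium and at 80.4 and 66.9 RPKM in stroma. Slc2a12, Cbr2, Gpx2, Thrsp and Tfcp2l1 were all below 2 RPKM in both stroma libraries.

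The higher genes of that kind had other roles. Gstm7, a glutathione transferase (chr3:107729252-107734663, mm9), was at 20.4 RPKM in the control against 90.5 RPKM with the knockout label, 4.44 times as high with an interval of 3.79 to 5.25. Agpat2, an enzyme of triglyceride and phospholipid synthesis, was at 5.06 and 23.7 RPKM. Acbd7, a carrier of acyl-CoA, was at 8.65 and 33.9 RPKM. Sat1, which acetylates polyamines for their breakdown, was at 15.8 and 52.3 RPKM, and Odc1, which makes them, was at 16.5 and 37.7 RPKM and was named after its values were seen. Lbp, the binding protein of bacterial lipopolysaccharide, was at 9.82 and 33.9 RPKM. Nfkbia, the inhibitor that holds NF-kappaB in the cytoplasm, was at 13.2 and 42.3 RPKM. Wbp5, Fam3c, Iah1 and Crip1 were 5.02, 3.74, 3.43 and 3.11 times as high. Of the 9 genes in this class that differed by at least 4-fold, Slc2a12, Cbr2 and H2-K1 were lower, and Sprr2f, Ovgp1, Ifitm1, Wbp5, Gstm7 and Agpat2 were higher.

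**Figure D4:**
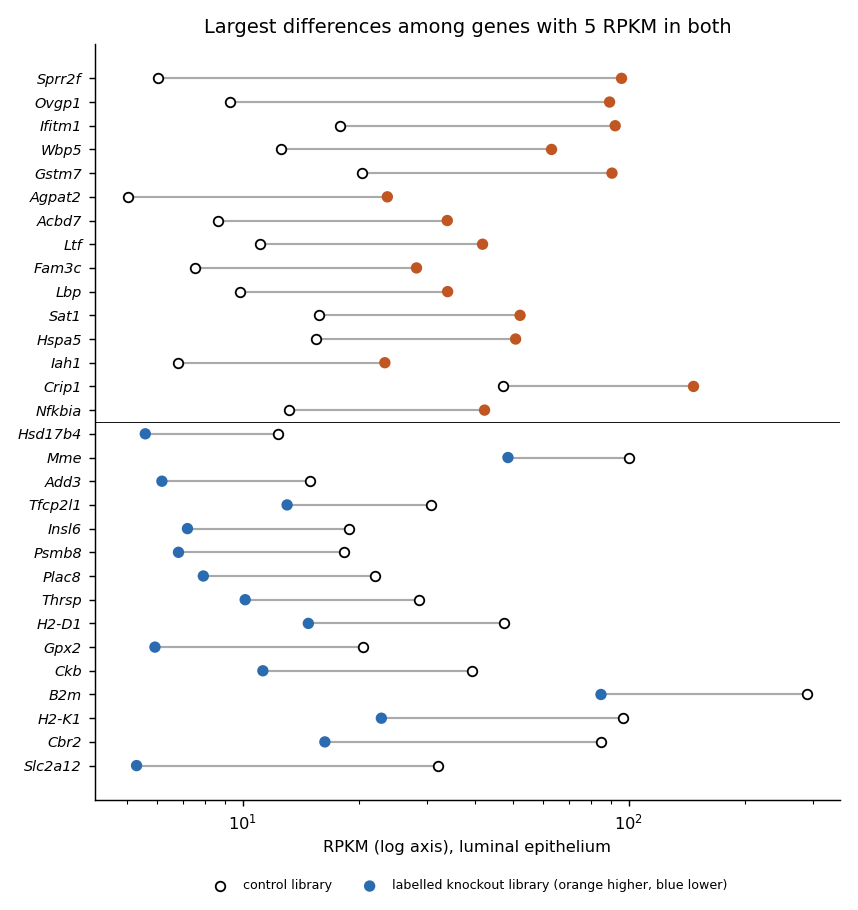
RPKM on a log axis of the 15 most positive and 15 most negative differences among genes at 5 RPKM or more in both epithelial libraries. Open points are the control, and filled points the library labelled knockout, orange where higher and blue where lower. Sprr2f at the top and Slc2a12 at the bottom have the longest lines in each direction.

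Glucose transporters showed both directions. Slc2a3, a high-affinity transporter, was at 34.2 RPKM in the control against 74.7 RPKM with the knockout label and was called higher. Slc2a1, the widely expressed transporter, was at 4.44 and 5.55 RPKM. Slc5a1, which takes up glucose with sodium, was at 1.95 and 0.965 RPKM. With Slc2a12, these are 4 of the 5 kept members of the list, and Slc2a6 was at 1.61 and 0.661 RPKM. The sum of the whole list was 74.9 and 87.6 RPKM, with a called member in each direction. When the libraries were scaled without their 50 most abundant genes, Slc2a3 was no longer called.

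Glutathione enzymes were similarly divided. Gclc, the rate-limiting enzyme of glutathione synthesis, was at 3.49 and 10.4 RPKM and was higher. Gsr, which regenerates glutathione, was at 13.1 and 4.67 RPKM and was lower. Gsta4 was at 16.2 and 8.21 RPKM, short of a call, and Gsta3 was listed at 0 and at 4.28 RPKM. Of 20 kept members 2 were higher, Gclc and Gsta3, and 2 lower, Gsr and Gpx2. Over all kept genes 3.67% were higher and 1.78% lower. The list had a median of -0.00 and a summed level of 1074 and 1038 RPKM. Gsto1 and Gstm2, among the most abundant genes of the epithelium, stood at 318 and 214 RPKM and, for Gstm2, at 332 and 463 RPKM.

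Among enzymes of cholesterol synthesis, Fdps, which makes farnesyl diphosphate, was higher at 4.53 and 11.3 RPKM. Sc4mol, a sterol oxidase, was higher at 0.437 and 2.74 RPKM, on about 5 estimated reads in the control. Cyp51, a sterol demethylase, was at 0.996 and 2.30 RPKM and was not called. Among lipid carriers Fabp5 was at 1.49 and 28.8 RPKM, on about 7 estimated reads in the control, and Plin2, which coats lipid droplets, was at 7.99 and 3.20 RPKM.

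Of 12 kept genes on the prostaglandin list 2 were higher and 2 lower, beside 3.67% higher and 1.78% lower over all kept genes. Ptgs2, the cyclooxygenase that is induced, stood at 0.496 and 3.97 RPKM, and Slco2a1, the prostaglandin importer, at 0.0447 and 2.70 RPKM, on about 2 estimated reads in the control. Ptger2, a receptor of prostaglandin E2, was 3.08-fold lower (8.44 and 2.74 RPKM). Cbr2, placed on this list for its reductase activity, was the other lower member. Ptgs1, the constitutive cyclooxygenase, was at 14.8 and 27.1 RPKM and was not called. Pla2g4a, which frees the fatty acid substrate, was at 21.8 and 19.3 RPKM.

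Of 8 kept ion and water transport genes 2 were called, 1 each way, and of 13 kept glycosylation genes 2 were called, both lower, beside 3.67% higher and 1.78% lower over all kept genes. Slc12a2, the sodium-potassium-chloride cotransporter, was lower at 10.8 and 4.07 RPKM. Aqp11, a water channel of internal membranes, was higher at 10.8 and 24.3 RPKM, a call that was lost when the libraries were scaled without their 50 most abundant genes. Fut4, which adds fucose in Lewis-type sugars, was 4.08-fold lower (5.33 and 1.31 RPKM), and Gcnt1, which branches O-linked sugars, was 2.22-fold lower (10.9 and 4.94 RPKM). The other 11 kept glycosylation genes were not called. Cd55, a surface inhibitor of complement, was at 10.3 and 3.69 RPKM, and C2, a component of the same cascade, at 4.82 and 0.984 RPKM. Those were the 2 lower genes of 10 kept complement and coagulation genes.

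Id proteins block basic helix-loop-helix factors and are targets of bone morphogenetic proteins (BMP). Id3 is listed at 0 in the control and 23.1 RPKM with the knockout label. Id1 was at 0.917 and 27.8 RPKM, on about 4 estimated reads in the control. Id2, the most abundant of the family in the control, was at 14.6 and 29.5 RPKM and just missed the size of a call at 0.97. Id4 was at 0.687 and 6.67 RPKM. Bmpr1b, a BMP receptor, was at 1.08 and 3.95 RPKM. These made 4 of 15 kept members higher, Id1, Id3, Id4 and Bmpr1b, and none lower, beside 3.67% higher and 1.78% lower over all kept genes. Id1, Id3 and Id4 were under 1 RPKM in the control and passed the minimum level through the library labelled knockout alone, which favours a call.

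The lists of LIF receptor, fibroblast growth factor and Notch signalling had 1 call each among 7 kept genes, beside 5.45% called over all kept genes. Lifr, the receptor of a cytokine needed for implantation, was at 1.68 and 6.18 RPKM and was the only 1 of 7 kept members of its list to be called. Its partner Il6st was at 8.95 and 10.3 RPKM, and Stat3, which acts below it, at 14.4 and 17.4 RPKM. Etv5, a target of the fibroblast growth factor pathway, was 9.56-fold lower (7.77 and 0.812 RPKM), the only call among 7 kept genes of that list. Dusp6 and Spry2, feedback genes of the same pathway, were at 4.46 and 1.55 RPKM in the control against 6.12 and 2.33 RPKM with the knockout label. Hey2, a Notch target, was at 1.36 and 5.06 RPKM. Hes1, another, was at 5.19 and 3.82 RPKM. Pgr, the progesterone receptor, was at 3.87 and 11.4 RPKM, and Esr1, the estrogen receptor, at 7.79 and 12.5 RPKM, of which only Pgr was called.

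Of 12 kept homeobox factors 1 was called, beside 5.45% called over all kept genes, so the count is near the background. Six3 (chr17:86020174-86025531, mm9) was at 4.53 RPKM in the control against 0.0237 RPKM with the knockout label, on about 100 and 7 estimated reads. It was 191-fold lower with an interval of 95 to 518. Barx2 was at 2.54 and 0.931 RPKM and Emx2 at 1.66 and 3.70 RPKM, both short of a call.

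A few other genes were near 0 in 1 of the epithelial libraries. Zfp248, a zinc finger protein (chr6:118377337-118405524, mm9), was at 6.59 RPKM in the control against 0.0665 RPKM with the knockout label, 99.1-fold lower with an interval of 62.3 to 164. In stroma it was at 0.789 and 0.637 RPKM. Tmem38b, an intracellular cation channel (chr4:53838917-53874890, mm9), was 23.3-fold lower (8.47 and 0.363 RPKM) and stood at 1.06 and 0.851 RPKM in stroma. Of 148 kept Zfp genes, Zfp248 was the 1 lower and Zfp52 (0.404 and 1.93 RPKM, named after its values were seen) the 1 higher. Over all kept genes 5.45% were called, so Zfp genes were called less often than that background.

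In the other direction Fzd4, a Wnt receptor (chr7:96552876-96558620, mm9), was at 0.0501 RPKM in the control, on about 2 estimated reads, and 5.91 RPKM in the library labelled knockout. The interval around its ratio of 118 ran from 33.8 to 1010. Pcdh17, a protocadherin (chr14:84843370-84936867, mm9), was at 0.0891 and 7.11 RPKM, with an interval of 38.8 to 231. Hyal1, a hyaluronidase, was at 0.223 and 7.11 RPKM, and Egflam, a matrix protein, at 0.202 and 11.4 RPKM. Hyal1 was named after its values were seen. All 4 were also low to moderate in stroma without such a gap: Fzd4 at 1.19 and 0.933 RPKM, Pcdh17 at 0.301 and 0.831 RPKM, Hyal1 at 0.668 and 0.423 RPKM and Egflam at 3.63 and 2.26 RPKM.

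None of 10 kept adherens junction genes, 10 desmosome and envelope genes or 16 genes of RhoA and planar polarity was called, with medians of 0.02, 0.22 and -0.12. Over all kept genes 5.45% were called, so these counts are near the background. Under scaling without the 50 most abundant genes the adherens junction median became -0.12 and that of the general epithelial markers -0.06, so neither has a direction. Prickle1, a planar polarity protein, came nearest at -0.99 (1.90 and 0.459 RPKM), and was called lower when the libraries were scaled without their 50 most abundant genes. Ctnnb1, beta-catenin, was at 38.6 and 33.3 RPKM. Of 20 kept tight junction genes, Cldn1 (1.48 and 15.8 RPKM) and Cldn23 (10.4 and 28.1 RPKM) were higher. Cldn3, the most abundant claudin, was at 175 and 218 RPKM. None of 26 kept ribosomal protein genes was called, although all 26 lay above 0, with a median of 0.26 that became 0.10 under scaling without the 50 most abundant genes.

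**Figure D5:**
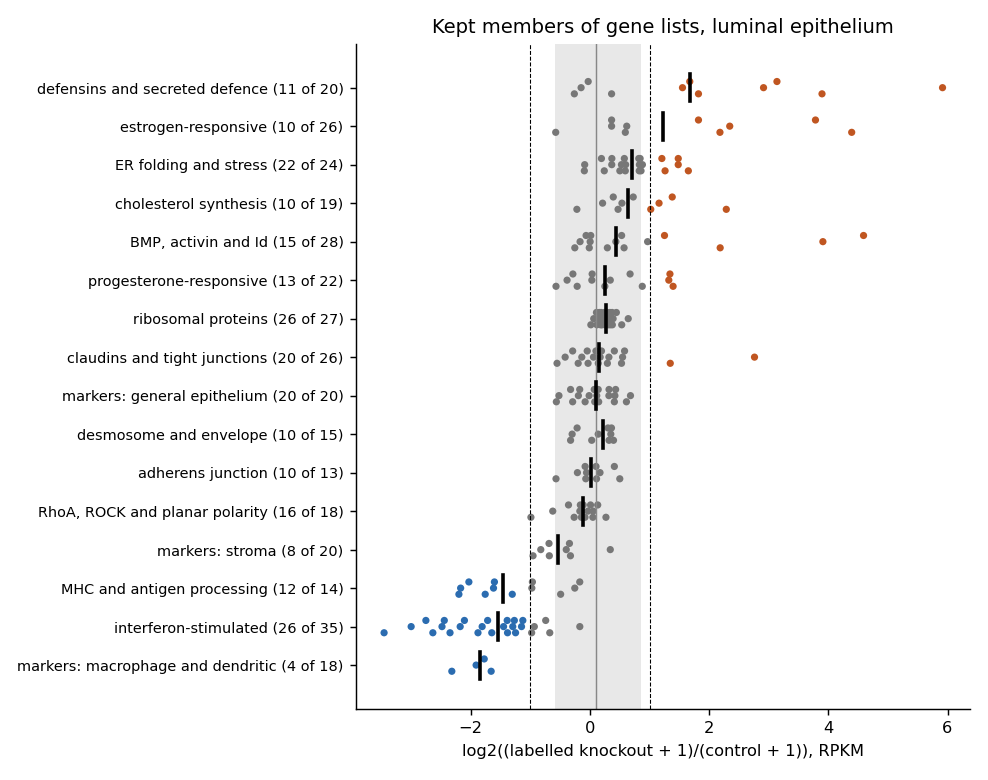
Difference of each kept member of 16 gene and marker lists, as log2((labelled knockout + 1)/(control + 1)) of RPKM, 1 point a gene, with a black bar at the median. Orange and blue points are called, dashed lines mark the size of a call, the grey band runs from the 5th to the 95th percentile of all kept genes (-0.58 to 0.87) and the grey line is their median. The interferon and antigen lists lie wholly below 0, and the epithelial marker and adherens junction lists lie around it.

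The authors' deposited table marks 94 of 23235 genes (0.405%) as significant in this comparison, 34 higher and 60 lower in the library labelled knockout. Of these 47 were among the kept genes, 25 higher and 22 lower, and all 47 met the size of a call. The authors' deposited table gives log2 fold changes of -7.58 for Six3, -6.63 for Zfp248, -5.32 for Ifit1 and 6.88 for Fzd4, with q-values of 1.4e-07, 3.7e-06, 0.000346 and 1.4e-06. It does not mark the most abundant genes with large differences: the authors' deposited q-value was 0.488 for H2-K1, 0.809 for B2m, 0.265 for Cbr2, 0.363 for Slc2a12 and 0.921 for Hspa5. Those values come from 1 library a side and carry no variation between mice.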

How the data were processed

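RNA of 4 laser-captured libraries, 1 per genotype and compartment, was sequenced after ribosomal RNA depletion. Per the file headers, the authors deposited RPKM per library, with a log2 fold change, a p-value and a q-value from their own comparison. Per the submitters' processing notes, CASAVA 1.8.2, TopHat2 2.0.5, Cufflinks 2.0.2 and build mm9 were used. Tool settings, filters and strand use are not given in the sources used here.

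From the RPKM, log2((labelled knockout + 1)/(control + 1)) was taken for named genes averaging at least 1 RPKM. No test was run. Genes were named by rule: Msx1, Msx2, the 4 given markers, the 20 largest differences each way at 5 RPKM in either library, the 15 largest at 5 RPKM in both, the 10 most abundant, up to 6 members of each list, and small families. Members of 43 gene lists and 12 marker lists that are given only as a value beside a list count, and genes said to be named after their values were seen, stand outside it. Members and lists were chosen with earlier results of these data known.

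Depth was estimated from steps in low values, of which 56.4% to 60.8% lay within 0.2 of a whole read. Lengths came from GENCODE vM21, for 98.9% of kept genes, and transcripts under 400 bases got no interval. Gene coordinates are as deposited, with starts raised by 1. Promoters are from RefSeq. The estimate of depth was also run on reads simulated with the same lengths and length correction that it assumes. That run cannot show its error in the real libraries. Alternatives changed the pseudocount, scaling, minimum level and gene types. Calculations ran in Python 3.11.15 with pandas 2.3.3, numpy 2.4.6 and scipy 1.17.1, and figures in matplotlib 3.10.9. Some items are not reported here.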

Additional observations from a re-analysis of the deposited data

Results flagged for a closer look

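In 2 genes, epithelium and stroma passed the size of a call in opposite directions. The difference between compartments was not tested. Ndufs5, a subunit of respiratory complex I, differed by -1.23 in luminal epithelium (12.2 and 4.65 RPKM in control and labelled knockout) and by 2.01 in stroma, where it is listed at 0 in the control and at 3.02 RPKM in the library labelled knockout. Gsr, which regenerates glutathione, differed by -1.31 in luminal epithelium (13.1 and 4.67 RPKM) and by 1.03 in stroma (1.59 and 4.30 RPKM).

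The small RNA models, set aside above, held 111 genes higher in the library labelled knockout among 143 kept, and 16 lower. Of the higher ones, 106 are listed at 0 in the control.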

How the results depend on the processing

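No paired analysis was possible because each group holds 1 library. Against 258 higher and 125 lower genes, a pseudocount of 0.1 gave 488 and 236, a pseudocount of 5 gave 85 and 33, a mean of at least 5 RPKM gave 109 and 43, and at least 1 RPKM in both libraries gave 156 and 69. Keeping small RNA and unnamed models gave 389 higher genes. Among gene lists, 49 higher and 45 lower members became 23 and 18 with a pseudocount of 5, 26 and 21 with a mean of at least 5 RPKM, and 28 and 27 with at least 1 RPKM in both libraries. The other settings were the 2 scalings, no minimum level, a counting interval that leaves out a ratio of 1 and, added after the data were seen, the removal of failed estimates. They kept these counts within 1.5 times. Over 326 named genes and 4 settings, 276 of 1304 recomputed differences moved by more than their counting interval or had none, and no called gene changed sign, which a pseudocount cannot bring about. Uncalled genes near 0 can change sign under scaling. Of 990 recomputed list counts 113 moved by more than 1.5 times. The limits of every comparison are 1 mouse a genotype, the shallow control library, the unknown use of strand and an Msx2 level that goes against its label.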

Other observations

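Histone H4 genes of the Hist1 cluster, which supply the core of the nucleosome, were above 0 in all 11 kept members, and 4 were called higher, with a median of 0.88. Hist1h4c, named after its values were seen, was at 20.2 RPKM in the control against 48.9 RPKM with the knockout label. In stroma it was at 73.4 and 69.6 RPKM. The copies are nearly identical, so their separate levels are uncertain. Over all 58 kept Hist genes 6 were higher and none lower, beside 3.67% higher over all kept genes. The cell cycle list had no higher member among 8 kept, which is near that background, with the topoisomerase gene Top2a at 4.67 and 8.71 RPKM, and Cdkn1c, a cell cycle inhibitor, lower at 2.53 and 0.742 RPKM.

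Cathepsins were abundant. Ctsd, an aspartic protease of lysosomes, was the most abundant named gene of both epithelial libraries, at 1611 and 2312 RPKM. Ctsl, a cysteine protease of lysosomes, was called higher, at 2.89 and 14.7 RPKM with a ratio of 5.08 and an interval of 3.64 to 7.56. Ctsb was at 47.2 and 71.8 RPKM. Ctss, the cathepsin of antigen-presenting cells, was 25.9-fold lower (3.97 and 0.153 RPKM) and was also lower in stroma (9.86 and 3.35 RPKM). Ctss was named after its values were seen, and its level moves with the macrophage markers, whose part in it was not tested.

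Tm4sf1, a surface protein named after its values were seen, was 4.48-fold lower in luminal epithelium (18.3 and 4.08 RPKM) and stood at 4.13 and 4.11 RPKM in stroma. Acta2, smooth muscle actin, was 73.4-fold lower (1.91 and 0.0261 RPKM, on about 22 and 4 estimated reads), with 5.58 and 8.21 RPKM in stroma.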
